A study of Mus musculus with 12 samples.

Results

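The genes described here are 9 enzymes that make NADPH or carry sugar through the pentose phosphate pathway, chosen by symbol: G6pdx, Pgls, Pgd, Rpia, Rpe, Tkt, Taldo1, Me1 and Idh1. They are 9 of the 52632 genes in the table, each matched to 1 row. RNA was sequenced from CD4 T cells flow sorted from mouse kidneys in 4 groups of 3 libraries. The wild-type (WT) mice were C57BL6/J animals bought from Jackson, and the CD4 Keap1 KO mice were made in house on the C57BL6/J background, so that genotype and source of the mice cannot be told apart. In each genotype 1 group served as control and the other had ischemia reperfusion injury (IRI), in which both kidneys lost their blood flow for 30 min and were taken 24 h later. Whether controls had sham surgery, the ages of the mice and the Cre line behind the deletion are not given in the sources used here. The labels do not tie the libraries of a group to separate animals either. The p-values therefore rest on library-to-library spread, which may be technical. The question the design poses is how loss of Keap1 in CD4 T cells, and kidney injury, changed the RNA of these cells.

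The pentose phosphate pathway branches from glycolysis at glucose 6-phosphate. Its oxidative branch makes NADPH and a pentose phosphate, and its non-oxidative branch moves carbon between pentoses and glycolytic sugars in both directions. NADPH supplies the reducing power for glutathione and thioredoxin recycling and for lipid synthesis, and ribose 5-phosphate feeds nucleotide synthesis in activated T cells. KEAP1 holds the transcription factor NRF2 at a low level by directing its degradation. NRF2 binds antioxidant response elements, and G6pdx, Pgd, Tkt, Taldo1, Me1 and Idh1 are known as genes it can raise.

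Values are FPKM (fragments scaled to transcript length and to the mapped fragments of the library), and sequencing depth is unknown. Because the median gene was higher in KO than in WT libraries as deposited (0.29 on the log2 scale, against 0.04 after rescaling), each library was divided by a median-ratio factor, and both scales are reported. The factors ran from 0.755 in WT IRI 3 to 1.34 in KO control 1. The libraries WT control 3, WT IRI 3 and KO control 1 were named as standing apart in an earlier account of these data, and the injury calls and the G6pdx and Rpe differences are also given without them. Keap1 itself had rescaled FPKM of 9.30 to 10.7 in the WT control libraries, 6.56 to 8.94 in the WT IRI libraries, 4.95 to 6.35 in the KO control libraries and 4.19 to 5.68 in the KO IRI libraries, so all 6 KO libraries lay below all 6 WT libraries and none was at 0. As deposited the genotypes overlapped (4.59 to 7.77 FPKM in KO and 6.03 to 9.87 in WT). T cell markers were detected in every library, and Cd4, the marker of the sort, was at 63.1 to 109 rescaled FPKM in WT and 142 to 286 in KO libraries. Messages of B cells, macrophages and kidney tubule were detected as well, and in bulk RNA fewer cells of a type and less RNA per cell cannot be told apart.

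Promoter sequence is shown for G6pdx, the pathway's first enzyme, and for Pgd and Rpia, which moved in opposite directions after injury. Each runs 250 bases upstream of a RefSeq start on GRCm38.p6, 5′ to 3′ on the gene's own strand. G6pdx lies at chrX:74428881-74429130 on the minus strand, Pgd at chr4:149166706-149166955 on the minus strand and Rpia at chr6:70792176-70792425 on the minus strand. Capitals mark the antioxidant response element core TGACNNNGC, the GC box GGGCGG and the CCAAT box CCAAT, each searched on both strands.
G6pdx: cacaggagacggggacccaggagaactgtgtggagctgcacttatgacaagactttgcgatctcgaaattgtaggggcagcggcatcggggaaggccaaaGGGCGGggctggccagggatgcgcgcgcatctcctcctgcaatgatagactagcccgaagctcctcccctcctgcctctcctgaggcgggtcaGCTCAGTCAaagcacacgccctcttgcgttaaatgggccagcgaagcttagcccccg
Pgd: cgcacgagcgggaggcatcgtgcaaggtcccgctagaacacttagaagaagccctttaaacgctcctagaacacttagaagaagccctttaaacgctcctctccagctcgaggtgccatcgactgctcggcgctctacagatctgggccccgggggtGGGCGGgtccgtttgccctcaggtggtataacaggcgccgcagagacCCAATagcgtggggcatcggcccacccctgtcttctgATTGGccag
Rpia: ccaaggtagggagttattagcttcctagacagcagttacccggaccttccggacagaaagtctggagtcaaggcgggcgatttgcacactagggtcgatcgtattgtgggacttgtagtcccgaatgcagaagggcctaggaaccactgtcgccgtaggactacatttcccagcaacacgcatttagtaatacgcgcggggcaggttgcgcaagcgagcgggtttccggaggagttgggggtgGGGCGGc
The response element core of G6pdx reads on the reverse strand, with its first base 57 bases before the start. Pgd had a GC box and a pair of CCAAT motifs in opposite orientations in this window, and Rpia had 1 GC box close to the start. The only other element among the members' windows that reached upstream of a start was in Me1, shown with 30 bases around it at chr9:86695901-86695930 on the minus strand.
Me1: gatgccgccgTGACTCAGCgcttctcgcgg
This core begins 6 bases before the start and ends at the third transcribed base. All 9 genes had at least 1 RefSeq window, 12 windows in all, and counting the 50 bases after the start 3 of the 12 held the core: these 2 and the second Pgd window, where it lies after the start. Of all 32851 windows of 300 bases, 12.39% held the core, 35.66% a GC box and 37.41% a CCAAT motif. The last 2 motifs were added after the response element had been searched. The matches describe letters in these windows and not sites at which a factor was measured.

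The most abundant of these messages were those of the non-oxidative enzymes Tkt and Taldo1, and that of Me1 was the least abundant. The mean FPKM over the 12 libraries, which is per length and so can be compared between genes, was 40.5 for Tkt, 33.5 for Taldo1, 18.6 for Pgd, 11.2 for Rpia, 10.5 for each of Pgls, G6pdx and Rpe, 3.25 for Idh1 and 0.417 for Me1. Among the 21896 protein-coding genes of the table, Tkt stood at percentile 93.8, Taldo1 at 92.1 and Me1 at 30.8. Tkt exceeded Taldo1 in 10 of the 12 libraries, Taldo1 exceeded Pgd in 11 and Pgd exceeded Rpia in 10. The order among Rpia, Pgls, G6pdx and Rpe was not stable between libraries: Rpia exceeded Pgls in 8, Pgls exceeded G6pdx in 5 and G6pdx exceeded Rpe in 6. Rpe exceeded Idh1, and Idh1 exceeded Me1, in all 12. Summed over the 9 enzymes, rescaled FPKM were 113 to 138 in the WT control libraries, 95.5 to 104 in the WT IRI libraries, 154 to 185 in the KO control libraries and 127 to 144 in the KO IRI libraries. The KO libraries thus lay above the WT libraries of the same condition. Tkt and Taldo1 together made up 40.07% (WT IRI 3) to 60.12% (KO control 3) of the sum. Of the enzymes taken singly, only rescaled Tkt did so in both conditions, and Pgd, Rpia and Rpe each overlapped between genotypes in both. The summed T cell markers, which are not of this pathway, also lay higher in KO. Their rescaled sums were 1086 to 1193 in WT control against 1303 to 1583 in KO control. After IRI they were 499 to 568 in WT against 856 to 1054 in KO. Sums of macrophage and monocyte markers overlapped in both conditions. How often sums of genes in general separate in this way was not computed.

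**Figure D1:**
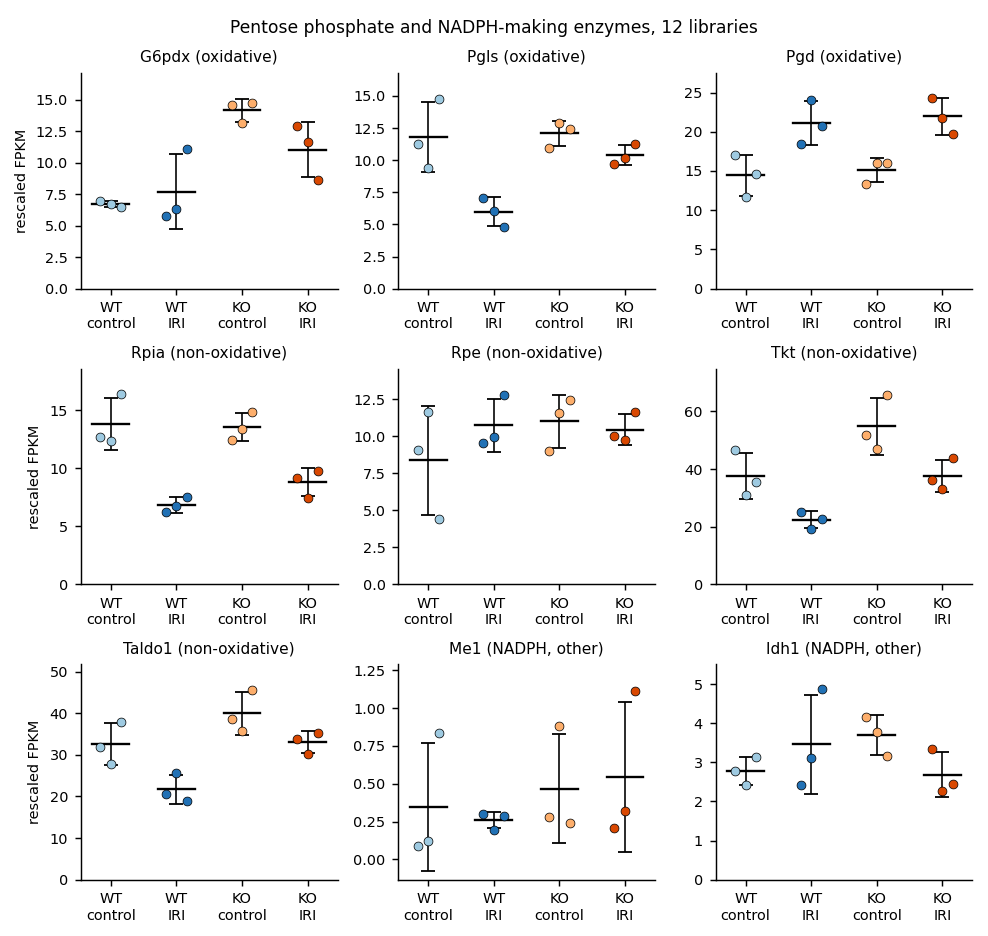
Rescaled FPKM (vertical axes) of each enzyme in the 12 libraries by group (horizontal axes), with 1 panel per gene, points for libraries, and the mean ± SD of the 3 libraries as bars. Pgd lies higher and Rpia lower in the 6 IRI libraries than in the 6 control libraries, and Me1 stays near or below 1.

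After injury, in the average over genotypes, 4 of the 8 tested enzymes fell and 1 rose. Rpia, Tkt, Pgls and Taldo1 fell by 0.74, 0.62, 0.53 and 0.41 on the log2 scale, and Pgd rose by 0.52. G6pdx, Rpe and Idh1 did not pass the test, and Me1 was below the filter of a mean of 1 FPKM. The comparison used limma on log2(rescaled FPKM + 1) with Benjamini-Hochberg adjustment over 19288 genes, a threshold of 0.05 and n = 6 libraries against 6. Of all tested genes 13.7% passed, 6.35% higher and 7.33% lower. As deposited, 3 enzymes fell (Rpia, Tkt and Pgls) and none rose, beside 6.03% of all genes lower and 3.01% higher. Without the 3 libraries named above, 2 enzymes passed (Rpia at −0.75, adjusted p = 0.00989, and Pgls at −0.43, adjusted p = 0.0458), beside 9.47% of all genes. The median difference of the 8 enzymes was −0.26 and that of all tested genes 0.06.

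With Keap1 deleted, in the average over conditions, none of the 8 tested enzymes passed the threshold after rescaling, beside 0.55% of all tested genes (0.378% higher, 0.171% lower), and 4 had an unadjusted p under 0.05, beside 21.4% of all genes. All 8 differences were above 0, and the share of all genes above 0 was not computed. Those of Pgd (0.07 ± 0.11, SE) and Idh1 (0.03 ± 0.16) were near 0, and each changed sign under 4 of the alternative fits. G6pdx had the highest estimate at 0.74 ± 0.15, followed by Tkt at 0.63 ± 0.13, Taldo1 at 0.45 ± 0.11 and Pgls at 0.39 ± 0.13. Adjusted p-values were 0.056 for G6pdx, 0.0567 for Tkt, 0.0702 for Taldo1 and 0.122 for Pgls. On the values as deposited 5 enzymes rose in KO: G6pdx (1.03, adjusted p = 0.0165), Tkt (0.94, adjusted p = 0.0232), Taldo1 (0.75, adjusted p = 0.0296), Pgls (0.67, adjusted p = 0.0316) and Rpia (0.44, adjusted p = 0.0458). On that scale 13.7% of all genes passed, 11.9% of all genes being higher in KO, and the median of all genes was 0.29 while that of the 8 enzymes was 0.58. After rescaling these medians were 0.04 and 0.29.

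**Figure D2:**
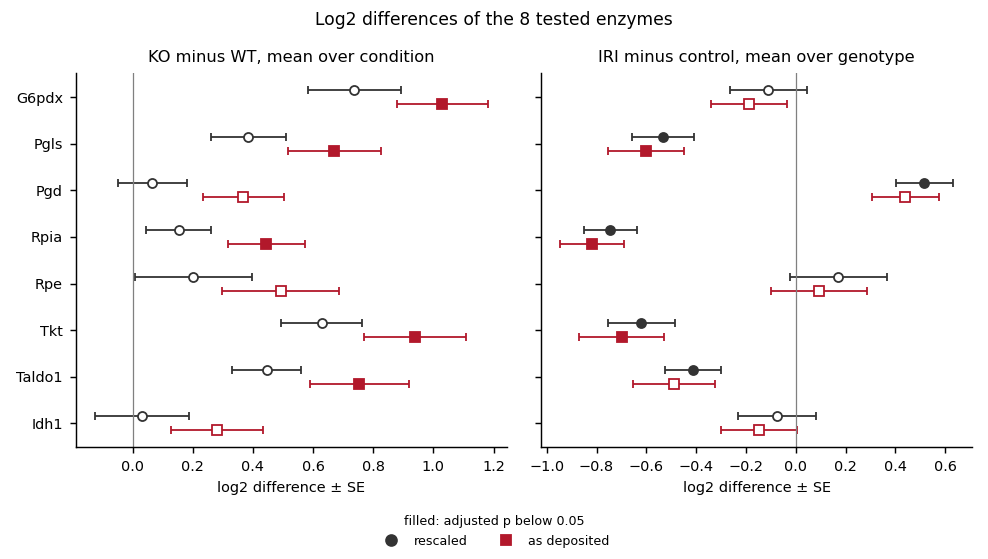
Log2 differences ± SE (horizontal axes) of the 8 tested enzymes for KO minus WT (left) and IRI minus control (right), with rescaled values as circles and values as deposited as squares, filled where the adjusted p is below 0.05. On the left the filled symbols are squares alone, for 5 enzymes, and on the right Rpia, Tkt and Pgls are filled on both scales while Pgd and Taldo1 are filled only after rescaling.

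Marker lists of T cells and of other cells were measured in the same libraries. After injury 6 of 8 T cell markers fell, with a median of −0.77, and their summed rescaled FPKM ran from 1086 to 1193 in the WT control libraries, 499 to 568 in the WT IRI libraries, 1303 to 1583 in the KO control libraries and 856 to 1054 in the KO IRI libraries. In KO against WT 3 of 8 rose (Cd4, Cd5 and Lat), with a median of 0.49, and as deposited all 8 rose. Neutrophil markers rose after injury in 3 of 6 (S100a8, S100a9 and Retnlg), with sums of 4.37 to 8.07 in the WT control libraries, 23.6 to 40.0 in the WT IRI libraries, 2.196 to 3.62 in the KO control libraries and 3.14 to 28.4 in the KO IRI libraries. Of 7 B and plasma cell markers 5 fell after injury, with sums of 130 to 225, 51.7 to 62.6, 333 to 1270 and 54.9 to 168 in the same order of groups. Macrophage and monocyte sums were 76.5 to 164, 112 to 126, 136 to 226 and 72.2 to 150, and proximal tubule sums were 7.66 to 67.7, 3.94 to 47.4, 1.96 to 158 and 6.05 to 256. Of 6 CD8 T and NK cell markers 5 fell after injury, with sums of 21.1 to 29.2, 11.2 to 14.0, 21.5 to 33.2 and 7.43 to 9.48. Loop and distal tubule sums reached 88.9, 58.8, 38.4 and 255, and erythroid sums 8.4, 7.52, 6.79 and 4.00. No marker on these lists was at 0 in all 3 libraries of a group. The part of these shifts in the values of the enzymes was not tested.

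In the oxidative branch, G6pdx (glucose 6-phosphate dehydrogenase, ENSMUSG00000031400.10, X, 74409483 to 74429194, minus strand) catalyses the first and rate-limiting NADPH-making step. Its rescaled FPKM were 6.95, 6.70 and 6.45 in the WT control libraries, 5.75, 6.29 and 11.1 in the WT IRI libraries, 14.6, 13.1 and 14.7 in the KO control libraries, and 12.9, 11.6 and 8.60 in the KO IRI libraries. The KO control libraries were all above the WT control libraries, with means of 14.1 ± 0.884 and 6.70 ± 0.252 (SD, n = 3). After injury the groups overlapped, because WT IRI 3 lay above KO IRI 3. As deposited, where WT IRI 3 is not divided by the lowest factor, its G6pdx was 8.37 FPKM and all 6 KO libraries (9.41 to 19.5) lay above all 6 WT libraries (5.66 to 8.37), a separation in this direction seen in 3.74% of all tested genes (after rescaling, in 0.778%). Without WT IRI 3 the averaged difference was 0.87 and passed (adjusted p = 0.0205). Without KO control 2 it was 0.76 and passed (adjusted p = 0.0312), with Tkt (0.68, adjusted p = 0.0237) and Taldo1 (0.48, adjusted p = 0.0471), in a fit that called 6.54% of all genes. The other 10 fits with 1 library left out gave G6pdx no call, and over all 12 its difference ran from 0.66 to 0.87 and its adjusted p up to 0.132. Without the 3 libraries named above none of the 8 enzymes passed, and G6pdx differed by 0.86 (adjusted p = 0.0792). In controls alone the KO minus WT difference of G6pdx was 0.97 ± 0.22 (adjusted p = 0.263), and after IRI it was 0.50 ± 0.22 (adjusted p = 0.289). With injury, G6pdx differed by −0.11 ± 0.15 in the average (adjusted p = 0.686). The estimates had opposite signs, at 0.13 ± 0.22 in WT (adjusted p = 0.794) and −0.35 ± 0.22 in KO (adjusted p = 0.474). The interaction of −0.47 ± 0.31 did not pass (adjusted p = 0.906). G6pdx overlaps Ikbkg on the opposite strand, and whether the counting used strand is not stated. The means of Ikbkg were 10.5, 14.8, 11.6 and 16.4 rescaled FPKM in WT control, WT IRI, KO control and KO IRI, and the part of its reads in the G6pdx values was not tested.

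Pgls (6-phosphogluconolactonase, ENSMUSG00000031807.10, 8, 71592176 to 71601092, plus strand) opens the lactone that G6pdx makes. Rescaled FPKM of Pgls were 11.2, 9.36 and 14.7 in the WT control libraries and 7.06, 6.06 and 4.80 in the WT IRI libraries. In KO control they were 11.0, 12.9 and 12.4, and in KO IRI 9.73, 10.2 and 11.3. All WT IRI libraries were below every other library, a separation whose share among all genes was not computed. After rescaling the KO control and KO IRI groups overlapped. As deposited the KO IRI libraries (10.6 to 12.3 FPKM) lay below the KO control libraries (12.9 to 15.2). The injury difference was −0.53 ± 0.13 in the average (adjusted p = 0.0193), −0.87 ± 0.18 in WT (adjusted p = 0.0161) and −0.20 in KO (adjusted p = 0.616). The difference between these, the genotype by injury interaction, was 0.67 ± 0.25 (unadjusted p = 0.0236, adjusted p = 0.906), so the fall was not shown to differ between genotypes. The WT call was lost without WT IRI 2 (adjusted p = 0.0505) and without the 3 libraries named above (−0.58, adjusted p = 0.0921). Fam129c, which overlaps Pgls on the same strand, had means of 3.76, 1.49, 2.92 and 1.90 rescaled FPKM in WT control, WT IRI, KO control and KO IRI.

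Pgd (6-phosphogluconate dehydrogenase, ENSMUSG00000028961.15, 4, 149149991 to 149166771, minus strand) makes the second NADPH and releases carbon dioxide. Rescaled FPKM of Pgd were 17.0, 11.7 and 14.6 in the WT control libraries, 18.5, 24.0 and 20.8 in the WT IRI libraries, 13.3, 16.07 and 15.98 in the KO control libraries, and 24.3, 21.8 and 19.7 in the KO IRI libraries. Each of the 6 IRI libraries was above each of the 6 control libraries, a separation in this direction seen in 3.6% of all tested genes. As deposited they overlapped, with controls up to 19.6 FPKM and IRI libraries down to 15.7. The averaged injury difference was 0.52 ± 0.11 (adjusted p = 0.0145), with 0.52 ± 0.16 in WT (adjusted p = 0.0787) and 0.51 ± 0.16 in KO (adjusted p = 0.144). As deposited the difference was 0.44 (adjusted p = 0.0702), and without the 3 libraries named above it was 0.48 (adjusted p = 0.0872). With libraries brought to equal sums it was 0.24 (adjusted p = 0.573), and with no filter on low values the call was also lost (adjusted p = 0.0608). Between genotypes Pgd differed by 0.07 ± 0.11 (adjusted p = 0.773).

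In the non-oxidative branch, Rpia (ribose 5-phosphate isomerase, ENSMUSG00000053604.5, 6, 70765720 to 70792232, minus strand) converts ribulose 5-phosphate to the sugar used for nucleotides. Rescaled FPKM of Rpia were 12.7, 12.4 and 16.4 in the WT control libraries, 6.20, 6.74 and 7.55 in the WT IRI libraries, 12.5, 13.4 and 14.9 in the KO control libraries, and 9.20, 7.47 and 9.77 in the KO IRI libraries. All 6 IRI libraries were below all 6 control libraries, a separation in this direction seen in 3.51% of all tested genes. The averaged difference of −0.74 ± 0.11 (adjusted p = 0.00158) passed under each of the 22 alternatives tried. In WT Rpia fell by 0.91 ± 0.15 on the log2 scale (adjusted p = 0.00624, and 0.0372 without the 3 libraries named above), and in KO the difference was −0.58 ± 0.15 (adjusted p = 0.0848). The interaction of 0.34 did not pass (adjusted p = 0.906), so the falls were not shown to differ. Between genotypes Rpia differed by 0.15 ± 0.11 (adjusted p = 0.442).

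Rpe (ribulose 5-phosphate 3-epimerase, ENSMUSG00000026005.15, 1, 66700831 to 66719805, plus strand) converts the same substrate to xylulose 5-phosphate. Rescaled FPKM of Rpe were 9.06, 11.6 and 4.41 in the WT control libraries, 9.55, 9.92 and 12.8 in the WT IRI libraries, 9.02, 11.6 and 12.5 in the KO control libraries, and 9.997, 9.73 and 11.7 in the KO IRI libraries. After rescaling the groups overlapped, and WT control 3 had the lowest value. As deposited, where the median gene was higher in KO, the KO libraries lay above the WT libraries in each condition. The lowest KO and highest WT values were 11.6 and 11.2 FPKM in controls, and 10.2 and 9.68 after IRI. Neither the injury difference (0.17 ± 0.19, adjusted p = 0.608) nor the genotype difference (0.20 ± 0.19, adjusted p = 0.576) passed. Without WT control 3 these differences were −0.01 and 0.03. Without the 3 libraries named above, WT control 3 among them, they were −0.14 and 0.16. Rpe overlaps Kansl1l on the other strand, with means of 4.47, 3.48, 5.42 and 3.37 rescaled FPKM in WT control, WT IRI, KO control and KO IRI.

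Tkt (transketolase, ENSMUSG00000021957.7, 14, 30548359 to 30574720, plus strand) moves 2-carbon units between sugars. Rescaled FPKM of Tkt were 46.6, 31.0 and 35.5 in the WT control libraries, 25.2, 19.2 and 22.7 in the WT IRI libraries, 51.9, 46.8 and 65.7 in the KO control libraries, and 36.1, 33.1 and 43.7 in the KO IRI libraries. Within each genotype the IRI libraries lay below the control libraries, and within each condition the KO libraries lay above the WT libraries. As deposited KO control (lowest 47.0) and KO IRI (highest 47.8) overlapped. The injury difference was −0.62 ± 0.13 in the average (adjusted p = 0.0133), −0.71 ± 0.19 in WT (adjusted p = 0.0468) and −0.53 ± 0.19 in KO (adjusted p = 0.199). Without the 3 libraries named above the averaged fall no longer passed (adjusted p = 0.0696), and as deposited the WT value did not pass (adjusted p = 0.113). With 1 library left out, the WT call held only without KO control 3 and without KO IRI 3, and was lost without any other library (adjusted p of 0.0508 without WT control 2 to 0.149 without WT IRI 2), and without the 3 libraries named above its adjusted p was 0.188. KO minus WT was 0.53 ± 0.19 in controls (adjusted p = 0.325) and 0.72 ± 0.19 after IRI (adjusted p = 0.169).

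Taldo1 (transaldolase, ENSMUSG00000025503.5, 7, 141392199 to 141402968, plus strand) moves 3-carbon units and works with Tkt. Rescaled FPKM of Taldo1 were 32.0, 27.7 and 37.8 in the WT control libraries, 20.6, 25.7 and 18.8 in the WT IRI libraries, 38.5, 35.7 and 45.7 in the KO control libraries, and 33.8, 30.2 and 35.3 in the KO IRI libraries. IRI libraries were below control libraries within each genotype, with a narrow gap in KO (35.3 against 35.7) that was lost as deposited (39.2 against 35.9). The averaged injury difference of −0.41 ± 0.11 (adjusted p = 0.0368) passed under 8 of the 22 alternatives and did not pass as deposited (adjusted p = 0.0969). With 1 library left out it held only without WT control 2, WT IRI 2 or KO control 2, and was lost without any other (adjusted p of 0.0524 without KO IRI 3 to 0.0899 without KO control 3). Without the 3 libraries named above it was −0.33 (adjusted p = 0.159). It was −0.56 ± 0.16 in WT (adjusted p = 0.0602) and −0.26 in KO (adjusted p = 0.462). KO minus WT was 0.29 in controls and 0.60 ± 0.16 after IRI (adjusted p = 0.172), and all KO IRI libraries lay above all WT IRI libraries.

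Of the NADPH sources outside the pathway, Idh1 (cytosolic isocitrate dehydrogenase, ENSMUSG00000025950.16, 1, 65158616 to 65186500, minus strand) had rescaled FPKM of 2.78, 2.43 and 3.13 in the WT control libraries and 2.42, 3.11 and 4.87 in the WT IRI libraries. In KO control they were 4.17, 3.79 and 3.15, and in KO IRI 3.34, 2.26 and 2.45. KO control lay just above WT control (lowest 3.15 against highest 3.13), while after injury the groups overlapped. The averaged genotype difference was 0.03 ± 0.16 (adjusted p = 0.928). It was 0.31 ± 0.22 in controls (adjusted p = 0.63) and −0.25 after IRI (adjusted p = 0.589), and the interaction of −0.56 ± 0.31 did not pass (adjusted p = 0.906). The injury difference of Idh1 was 0.21 ± 0.22 in WT (adjusted p = 0.647) and −0.36 ± 0.22 in KO (adjusted p = 0.463).

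Me1 (cytosolic malic enzyme, ENSMUSG00000032418.15, 9, 86581371 to 86695953, minus strand) makes NADPH from malate. Its FPKM as deposited were 0.0807, 0.115 and 0.768 in the WT control libraries, 0.294, 0.189 and 0.217 in the WT IRI libraries, 0.372, 0.888 and 0.294 in the KO control libraries, and 0.239, 0.334 and 1.22 in the KO IRI libraries. In WT control, KO control and KO IRI 1 library each stood well above the rest of its group, and all groups overlapped. In a fit with no filter on low values, KO minus WT was 0.22 ± 0.19 (adjusted p = 0.538) and IRI minus control −0.01 ± 0.19 (adjusted p = 0.988). A330041J22Rik, an antisense gene, and Gm38230 overlap it.

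Within each condition or genotype alone, the calls were fewer. In KO against WT, no enzyme passed in controls (0.0363% of all genes passed) or after IRI (0.057%), with 2 and 4 of 8 at an unadjusted p under 0.05, beside 11% and 16.5% of all genes. In WT, 3 enzymes fell after injury (Rpia, Pgls and Tkt) and none rose, beside 4.68% of all genes lower and 3.26% higher. As deposited 2 fell (Rpia and Pgls), beside 2.59% lower. In KO, no enzyme passed after injury, beside 2.06% of all genes, and 3 of 8 had an unadjusted p under 0.05, beside 16.4%. The interaction passed for none of the 8 and for 0.00518% of all genes, with Pgls alone at an unadjusted p under 0.05, so no injury response of these enzymes was shown to depend on genotype. By separation of the rescaled values rather than by test, 3 of the 9 enzymes had all KO above all WT libraries in controls (G6pdx, Tkt and Idh1, beside 7.91% of tested genes). After IRI 3 did so (Pgls, Tkt and Taldo1, beside 11.8%). As deposited 6 of the 9 did so in controls and 6 after IRI. On that scale the median of all tested genes was itself higher in KO, by 0.30 in controls and 0.26 after IRI (log2). The share of all genes apart on that scale is not given here. Injury left Pgd apart above the controls in each genotype (beside 12.8% of tested genes in WT and 12% in KO). In WT 4 enzymes were apart below (Pgls, Rpia, Tkt and Taldo1, beside 13.6%), and in KO 4 (G6pdx, Rpia, Tkt and Taldo1, beside 10.6%). As deposited, G6pdx, Tkt and Taldo1 overlapped in KO, and Pgls was apart below.

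The relation of the enzymes to one another within a library does not depend on scaling. The ratios below, chosen after the values were seen, are given as descriptions. The ratio of G6pdx to Pgd was 0.408, 0.572 and 0.443 in the WT control libraries, 0.311, 0.262 and 0.534 in the WT IRI libraries, 1.096, 0.817 and 0.921 in the KO control libraries, and 0.530, 0.534 and 0.436 in the KO IRI libraries. Thus the first dehydrogenase stood nearest the level of the second in the 3 KO control libraries, all above the other 9. The ratio of G6pdx to Idh1 was 2.02 to 2.76 over the 6 WT libraries and 3.47 to 5.14 over the 6 KO libraries, with no overlap in either condition. After rescaling none of the 9 enzymes alone separated the genotypes over all libraries. How often other pairs of genes separate them was not computed. The ratio of Pgd to Rpia was 1.34, 0.948 and 0.887 in the WT control libraries and 1.07, 1.20 and 1.07 in the KO control libraries. After injury it was 2.98, 3.56 and 2.75 in WT and 2.64, 2.92 and 2.02 in KO, so every IRI library was above every control library. This had to follow and adds no result, since rescaled Pgd and Rpia each separated IRI from control, in opposite directions. The mean ratio of Pgd to Pgls was 1.25 in both control groups, 3.64 in the WT IRI libraries and 2.13 in the KO IRI libraries. A further ratio, Tkt to Taldo1, was computed and not drawn. Its means were 1.17 in WT control, 1.06 in WT IRI, 1.36 in KO control and 1.13 in KO IRI. The genotypes overlapped in each condition, and IRI and control overlapped in WT but not in KO.

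**Figure D3:**
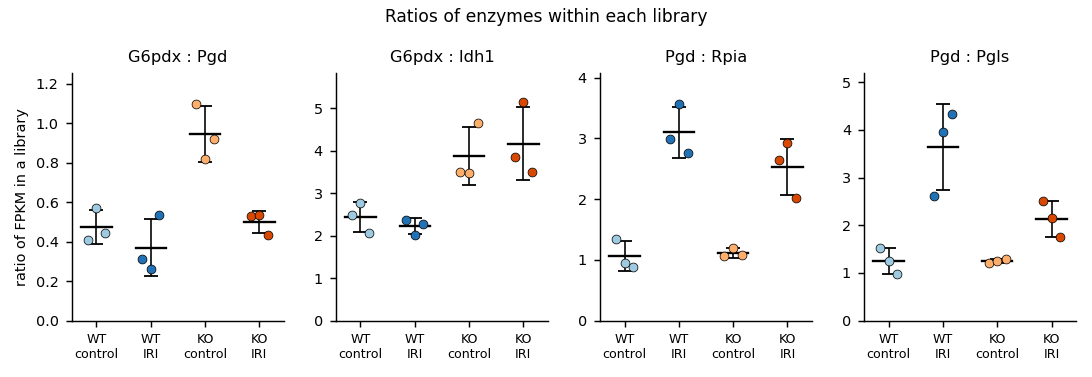
Ratios of FPKM between pairs of enzymes within each library (vertical axes, no unit) by group (horizontal axes), with points for libraries and the mean ± SD of 3 libraries as bars. G6pdx to Idh1, a pair chosen after the values were seen, separates the genotypes (2.02 to 2.76 against 3.47 to 5.14). Pgd to Rpia separates IRI from control, as rescaled Pgd and Rpia each do alone.

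Other genes of the same chemistry were taken from lists drawn up by function. Of 10 tested other pentose phosphate genes (of 12 listed), none passed in KO against WT and 1 fell after injury: Prps2, which makes phosphoribosyl pyrophosphate from ribose 5-phosphate (−0.67 ± 0.17, adjusted p = 0.0252). Of 12 tested other NADPH sources (of 13), none passed in either comparison, with medians of 0.19 for genotype and −0.12 for injury. Of 14 genes from ribose 5-phosphate to nucleotides, none passed by genotype and 1 fell after injury, the purine enzyme Gart (−0.47, adjusted p = 0.0207). These lists had injury medians of −0.20 for other pentose phosphate genes and −0.28 for nucleotide genes, beside 0.06 for all tested genes.

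Among 18 tested NADPH users (of 19), 3 rose in KO: Nqo1, a quinone reductase (2.30 ± 0.18, adjusted p = 0.000572), Txnrd1, thioredoxin reductase (1.27 ± 0.10, adjusted p = 0.000677), and Gsr, glutathione reductase (1.01 ± 0.16, adjusted p = 0.0318). None fell, and the median was 0.23. After injury 2 of these users rose, Gsr (0.82 ± 0.16, adjusted p = 0.00764) and Por, the reductase of cytochrome P450 enzymes (0.64 ± 0.17, adjusted p = 0.0316). Another 3 fell: the NADPH oxidase subunits Cyba (−1.08 ± 0.16, adjusted p = 0.00162) and Cybb (−1.04 ± 0.19, adjusted p = 0.00512), and the aldose reductase Akr1b3 (−0.45 ± 0.10, adjusted p = 0.017). As deposited Por (adjusted p = 0.0818) and Akr1b3 (adjusted p = 0.0607) did not pass.

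Of 13 genes of glucose entry, Gpi1, which interconverts glucose 6-phosphate and fructose 6-phosphate, rose in KO (0.57 ± 0.09, adjusted p = 0.0297). After injury 3 fell, the hexokinase Hk1 (−0.66, adjusted p = 0.000764), the aldolase Aldoa (−0.91, adjusted p = 0.00268) and the glucose transporter Slc2a3 (−0.85, adjusted p = 0.00863). The phosphofructokinase Pfkl (0.42, adjusted p = 0.0179) and the regulator Pfkfb3 (0.65, adjusted p = 0.0268) rose after rescaling but did not pass as deposited (adjusted p = 0.144 and 0.132). Of 10 NRF2 reference targets 6 rose in KO with a median of 1.05, against 0.29 for the 8 enzymes, and 3 of its genes (Nqo1, Txnrd1 and Gsr) are the NADPH users already named. The list did not move as 1. Slc7a11 was lower in KO after IRI (3.78 to 5.11 rescaled FPKM, against 5.61 to 9.66 in WT). In controls its groups overlapped (0.853 to 2.78 in KO, 2.59 to 4.33 in WT). Hmox1 overlapped between genotypes in both conditions. As deposited more genes of these lists rose in KO (2 other pentose phosphate genes, 4 other NADPH sources, 6 NADPH users, 4 of glucose entry, 4 of nucleotide synthesis and 8 NRF2 reference targets), on a scale where 11.9% of all genes were called higher, against 0.378% after rescaling. The NRF2 list was chosen with earlier results of these samples known and is not independent evidence of its direction.

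**Figure D4:**
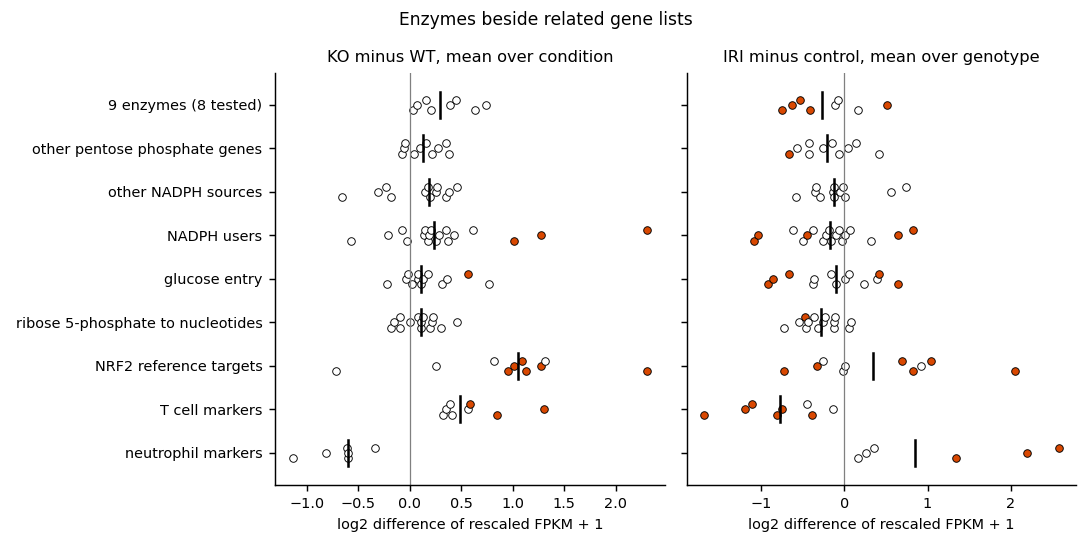
Log2 differences of rescaled FPKM + 1 (horizontal axes) of each tested gene in the lists (vertical axes), for KO minus WT (left) and IRI minus control (right), with filled points past the threshold and the list's median as a vertical bar. The 8 enzymes have medians of 0.29 and −0.26, and the NRF2 reference targets reach 2.30 on the left.

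The genes whose levels ran most like each enzyme over the 12 libraries are given by Pearson's r of log2(rescaled FPKM + 1) among protein-coding genes whose average was 5 FPKM or more. These points share the group structure, so r is a description. For G6pdx they were Zc3h12d (0.916) and Ssna1 (0.913), for Pgls 1810022K09Rik (0.971) and Gnb1 (0.952), and for Pgd Zswim4 (0.941) and Prr7 (0.912). Rpia ran with Ifi27 and Rnf213 (0.976 each), Rpe with Rev1 (0.923) and Lars2 (0.919), Tkt with Srebf2 and Sarnp (0.945 each), Taldo1 with Noc2l (0.960) and Nfu1 (0.957), and Idh1 with Limd1 (0.861) and Phkb (0.850). Rnf213 went from 36.4 ± 6.59 in the WT control libraries to 7.86 ± 1.75 in the WT IRI libraries (SD, n = 3), a wider range than that of Rpia (13.8 ± 2.24 to 6.83 ± 0.679). Among the enzymes, the highest r was between Pgls and Taldo1 (0.891), then Tkt and Taldo1 (0.864), Pgls and Rpia (0.815) and Pgls and Tkt (0.811). The lowest was between Pgd and Rpia, at −0.722. On deviations from the group means the order was another: G6pdx and Idh1 had the highest r (0.754), Pgls and Taldo1 0.592, Pgls and Rpia 0.351, Tkt and Taldo1 0.272, Pgls and Tkt 0.247, and Pgd and Rpia 0.213. In WT IRI 3, divided by the lowest factor, G6pdx (11.1 against 5.75 and 6.29) and Idh1 (4.87 against 2.42 and 3.11) were both the highest of their group. As deposited both were the highest there too, with narrower gaps (G6pdx 8.37 against 5.66 and 6.04 FPKM, Idh1 3.67 against 2.38 and 2.99). The part of this library in their r was not tested.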

How the data were processed

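RNA of flow-sorted kidney CD4 T cells was sequenced in 12 libraries, 3 in each of 4 groups, from 1 ng of total RNA as 36 bp read pairs, per the labels' protocols. The authors deposited 1 table of FPKM values per gene. Per the submitters' processing notes, the tools were Cufflinks 2.2.1, TopHat2 2.1.0, Partek 7.0 and bcl2fastq 2.17.1.14 and the build GRCm38, without roles, and the annotation release and strand setting are not given in the sources used here. FPKM is not a count and keeps no depth here, so no count test, interval or floor was computed.

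Genes averaging 1 FPKM or more over all libraries (19288) were tested. FPKM were divided by median-ratio factors, from the 16018 of these genes that no library listed at 0, and log2(value + 1) was fitted with limma 3.58.1 (R 4.3.3; lmFit, eBayes with trend), with 1 mean per group, no replicate block, 8 residual degrees of freedom and Benjamini-Hochberg adjustment with a threshold of 0.05. Differences are on that scale, which understates changes of low genes. Coordinates are GENCODE M21 (GRCm38), promoters RefSeq GRCm38.p6, and no protein sequence was used. The fit was also run on simulated data, with independent noise and changes in KO larger than the rescaled enzyme differences here. No simulated library was made to stand apart, so that run does not bear on these differences. The 22 alternatives were other scalings, pseudocounts, filters, array weights, the block and left-out libraries. All 12 columns carry 1 date, so no batch could be separated.

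The members and lists were chosen with earlier results of these data known. Genes named are the 9 enzymes, from each other list up to 4 called genes per comparison by lowest adjusted p, and the 2 genes most like each enzyme. Markers, the overlapping genes and the ratios are named as well, the ratios chosen after their values were seen. Por and Pfkfb3 fall outside the limit of 4 and were named after their values were seen, to account for every called gene of their lists.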

Additional observations from a re-analysis of the deposited data

How the results depend on the processing

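The fits gave 8 calls of an enzyme among 56 values (8 enzymes in 7 comparisons). All 8 kept their direction under every alternative, and 1 (Rpia after injury, averaged over genotype) also stayed past the threshold under all, while 9 of the 48 values with no call gained one under at least 1 alternative. The cause of each change below was not tested.

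For KO against WT averaged, the number of enzymes past the threshold went from 0 to 5 as deposited and 4 with array weights, and was 0 to 3 with 1 library left out (3 without KO control 2, 1 without WT IRI 3). The 106 genes called, 68.9% of them higher in KO, became 2639 as deposited (87.1% higher), 54 with quantile normalization, 14 with a common sum, 38 with no filter, 53 with a mean of at least 5 FPKM, 1936 with array weights (48% higher) and 60 without the 3 libraries that stand apart (48.3% higher). With 1 library left out they ran from 20 (without KO IRI 1) to 1260 (without KO control 2, 30.2% higher). In controls, 7 genes became 4 with a common sum, 11 with a pseudocount of 0.1, 19 with array weights and 28 without the 3 libraries, and 7 to 500 with 1 left out (500 without KO control 2). After IRI, array weights called 1 enzyme. The 11 genes became 0 with a common sum, 6 with a pseudocount of 5, 428 with array weights and 21 without the 3 libraries, and 2 (without WT IRI 1) to 18 (without WT control 3) with 1 left out.

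For IRI against control averaged, 5 enzymes became 3 as deposited, 1 with a common sum, 3 with no filter and 2 without the 3 libraries, and 4 to 5 with 1 left out. With a common sum the difference of Pgd went from 0.52 to 0.24 (adjusted p = 0.573). The 2639 genes, 46.4% of them higher, became 1744 as deposited (33.3% higher), 1028 with a common sum, 1597 with no filter and 4326 with array weights, and 1819 to 2712 with 1 left out. In WT, 3 enzymes became 0 with a common sum, 5 with a mean of at least 5 FPKM and 1 without the 3 libraries, and 1 (without WT IRI 2) to 3 with 1 left out. The 1531 genes became 729 as deposited, 108 with a common sum, 789 with no filter, 2863 with array weights and 697 without the 3 libraries, and 731 (without WT IRI 2) to 1537 with 1 left out. In KO, 1 enzyme (Rpia) passed with a mean of at least 5 FPKM (adjusted p = 0.0473) and 1 with array weights (again Rpia, adjusted p = 0.0132). The 398 genes became 167 as deposited, 54 with a common sum, 144 with no filter, 601 with a mean of at least 5 FPKM, 1378 with array weights and 146 without the 3 libraries, and 113 (without KO control 1) to 632 (without KO IRI 1) with 1 left out. The 1 gene of the interaction became 0 with a pseudocount of 5, 2 with no filter and 20 without the 3 libraries, and 1 to 12 (without WT control 3) with 1 left out.

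The replicate numbers were not taken as pairs. Deviations of same-numbered libraries correlated at −0.034 to 0.206 (18 pairs, median 0.017) and those of different numbers at −0.153 to 0.124 (36 pairs, median −0.007), and 6 of 12 libraries correlated best with their own number, a hint from the data and not the design. With the replicate block, 29 genes passed in KO against WT averaged, 0 after IRI and 6 in controls. After injury 2319 passed in the average with 4 enzymes, Taldo1 missing at an adjusted p of 0.0583, 1249 in WT with 3 enzymes and 307 in KO with 0.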
